A study of Mus musculus with 8 samples.

Results

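The genes described here are Trp53, which encodes the transcription factor p53, and 9 genes that p53 is known to transcribe or that answer to it (Mdm2, Mdm4, Ccng1, Bax, Gadd45a, Gadd45b, Btg2, Sesn1 and Trp53inp1), 10 of the 55487 genes in the count table. They were chosen by name as direct p53 genes, without the inhibitors of cyclin-dependent kinases, and each was found under its Ensembl identifier. Muscle stem cells (MuSCs) sorted from aged wild-type mice were kept for 72 hours in growth medium containing either 1% DMSO as vehicle or the combination of nicotinamide (NAM, a form of vitamin B3) and pyridoxine (PN, a form of vitamin B6), for which the labels give 1 mM without a separate value for each compound. The study's methods name aged male C57BL/6JRj mice, which the labels call old. Pools of 2 mice gave 4 libraries with vehicle and 4 with NAM/PN, and the labels number the pools from 1 to 4 in each condition. A shared number was read as the same pool cultured once with each condition, which makes 8 mice. No young MuSCs and no cells without p53 were part of the comparison. All 10 genes passed the filter on low counts and were tested among 12060 genes.

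p53 is held at a low level in unstressed cells by MDM2, a ubiquitin ligase, and by its relative MDM4, and it accumulates after DNA damage, nucleolar stress or oncogene activity. Its target genes then halt the cell cycle, repair DNA, limit oxidants, remove the cell by apoptosis, or, as Mdm2 does, return p53 to its low level. Control of p53 lies largely in the stability of the protein, so the mRNA of Trp53 is a poor guide to p53 activity, while the mRNAs of targets are often read as its output. In MuSCs, p53 is known to take part in the choice between survival, quiescence and differentiation after activation.

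p53 binds a decamer that reads the same on both strands and is usually found as a pair with a short spacer, so promoters were searched for it to show where the listed genes carry the letters. RefSeq promoter windows on GRCm38.p6, which run from 250 bases before to 50 bases after a start of transcription, matched 9 of the 10 genes (not Trp53inp1), with 11 windows because Mdm4 and Sesn1 have 2 starts each. An exact decamer was in 6 of the 11 windows (54.5%), against 2745 of all 32851 windows (8.36%), and a pair of decamers, at most 13 bases apart and with up to 1 mismatch in the weaker one, was in the window of Ccng1 and in 0.627% of all windows. Since the genes were listed as p53 targets, this share describes the list and was not tested. The windows of Gadd45b and Btg2, which like Mdm2 and Ccng1 had lower values with NAM/PN in all pools, held no exact decamer, nor did those of Mdm4. The whole windows of Mdm2, the feedback target, and of Ccng1, the gene with the pair, are shown with the decamers in capitals (chr10:117710709-117711008 and chr11:40755237-40755536, both on the minus strand).
Mdm2: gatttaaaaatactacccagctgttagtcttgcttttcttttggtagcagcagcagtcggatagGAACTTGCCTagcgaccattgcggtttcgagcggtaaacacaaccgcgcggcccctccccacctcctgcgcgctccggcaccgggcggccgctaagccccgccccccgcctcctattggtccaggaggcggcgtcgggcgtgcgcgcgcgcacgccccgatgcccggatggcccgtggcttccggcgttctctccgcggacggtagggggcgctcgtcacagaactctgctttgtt
Ccng1: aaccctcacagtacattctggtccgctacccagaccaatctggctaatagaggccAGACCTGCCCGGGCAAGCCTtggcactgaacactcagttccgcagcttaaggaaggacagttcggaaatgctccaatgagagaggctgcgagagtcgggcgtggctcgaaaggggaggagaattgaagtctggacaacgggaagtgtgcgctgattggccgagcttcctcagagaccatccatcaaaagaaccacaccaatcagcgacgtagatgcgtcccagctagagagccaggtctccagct
In Ccng1 the capitals span 2 decamers without a spacer, of which the second is the exact match. The decamers of the other 4 windows are shown with 15 bases on each side, at chr11:69580269-69580308 (plus strand) for Trp53, chr7:45467075-45467114 (minus strand) for Bax, chr6:67037423-67037462 (minus strand) for Gadd45a and chr10:41887251-41887290 (plus strand) for the start of Sesn1 farther along the chromosome.
Trp53: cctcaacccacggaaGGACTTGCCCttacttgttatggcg
Bax: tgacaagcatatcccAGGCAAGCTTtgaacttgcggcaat
Gadd45a: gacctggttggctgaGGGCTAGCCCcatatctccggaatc
Sesn1: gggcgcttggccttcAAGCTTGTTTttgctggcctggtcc
The exact decamers began 75 bases before the start in Trp53, 186 in Mdm2, 185 in Ccng1, 201 in Bax, 40 in Gadd45a and 173 in Sesn1. A match of letters is a description and not a binding site, and sites farther from the start or in introns lay outside these windows.

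**Figure D1:**
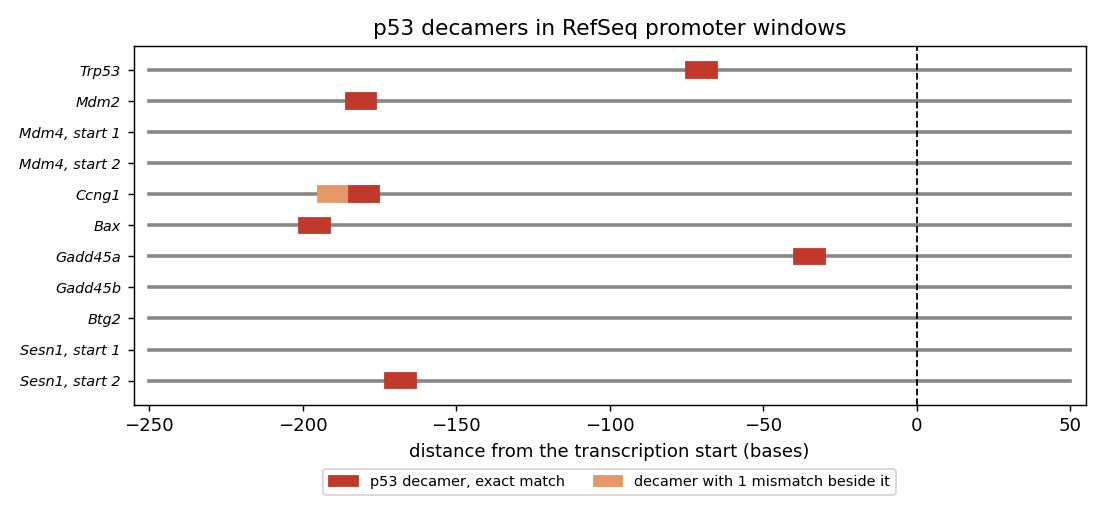
Each line is a RefSeq promoter window, drawn by its distance in bases from the transcription start (dashed line), and boxes mark p53 decamers. Exact decamers (red) lie in 6 of the 11 windows, and the Ccng1 window holds a second decamer with 1 mismatch (orange) directly beside the exact one.

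Libraries held between 6472484 and 10163101 counts, and 3 counts, taken as the floor of detection for counting error only, corresponded to between 0.280 and 0.457 CPM (counts scaled by library size after TMM normalization). Of 8 MuSC and myoblast markers 7 were tested and 0 were called, and their means in either condition lay between 25.8 CPM (Myf5) and 1366 CPM (Myod1), with Pax7 at 196 CPM under vehicle and 173 CPM under NAM/PN. The eighth, Chrdl2, did not pass the filter, with 56, 4, 70 and 0 counts under vehicle and 0, 0, 2 and 0 under NAM/PN, and the 7 tested markers all had fold changes below 0. The summed level of the 8 was between 2741 and 3223 CPM under vehicle and between 2187 and 2745 CPM under NAM/PN. By voomWithQualityWeights of limma, Des was called lower (adjusted p = 0.0478). In vehicle replicate 3, 18.7% of the counts fell on 1 ribosomal RNA gene, against between 5.22% and 11.6% in the other libraries. Results of the listed genes that rest on this library are given with and without it. For other genes, fold changes without single libraries were taken only for Plk2, Ak1 and Sulf2. NAM/PN replicates 1 and 2 stood apart in Col1a1, a collagen gene of fibroblasts, with 486 and 1032 CPM, against 1.74 to 41.3 CPM in the other 6 libraries. The largest library, NAM/PN replicate 4, had the fewest genes with counts (12483) and the lowest share of counts on mitochondrial genes (2.56%). It also held the lowest values of Mdm2, Trp53inp1 and Plk2, and without it their log2 fold changes were -0.44, -1.44 and -1.02. A gene was called when its p-value from the quasi-likelihood test of edgeR, adjusted by Benjamini-Hochberg over all genes tested, was below 0.05. This held for 1.28% of the genes, with 0.995% lower and 0.282% higher under NAM/PN. The 4 libraries of a condition come from separate pools of mice, and in bulk RNA fewer cells of a type and less RNA per cell cannot be told apart.

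NAM/PN lowered Trp53inp1 by 2.98-fold, and this was the single call among the 10 genes (10%, against 0.995% of all genes called lower and 0.282% called higher). With the pool as a replicate block it was again the single call, among 1.29% of all genes. All 10 fold changes lay below 0, as did 50.2% of all tested genes, and their median log2 fold change was -0.52, against -0.0022 over all genes tested. Mdm2, Ccng1, Gadd45b, Btg2 and Trp53inp1 were lower in each of the 4 pools, as were 10.6% of all genes tested, and for 4 of the 10 (Mdm2, Ccng1, Gadd45b and Trp53inp1) vehicle and NAM/PN libraries occupied separate ranges, as for 7.21% of all genes in either direction and 4.42% with lower values. An unadjusted p under 0.05 was reached by Mdm2, Ccng1, Btg2 and Trp53inp1 (4 of 10, against 9.28% of all genes). Vehicle replicate 3, the library with 18.7% ribosomal RNA, held the highest value of 7 of the 10 genes (all but Trp53, Mdm4 and Sesn1). Without it Trp53inp1 was still the single call, and 8 of the 10 fold changes lay below 0, with Bax and Gadd45a above. Mdm4 also turned to values just above 0, at most 0.033, when NAM/PN replicate 1, NAM/PN replicate 2 or vehicle replicate 2 was left out. These counts describe genes that were listed with earlier results of these data known.

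**Figure D2:**
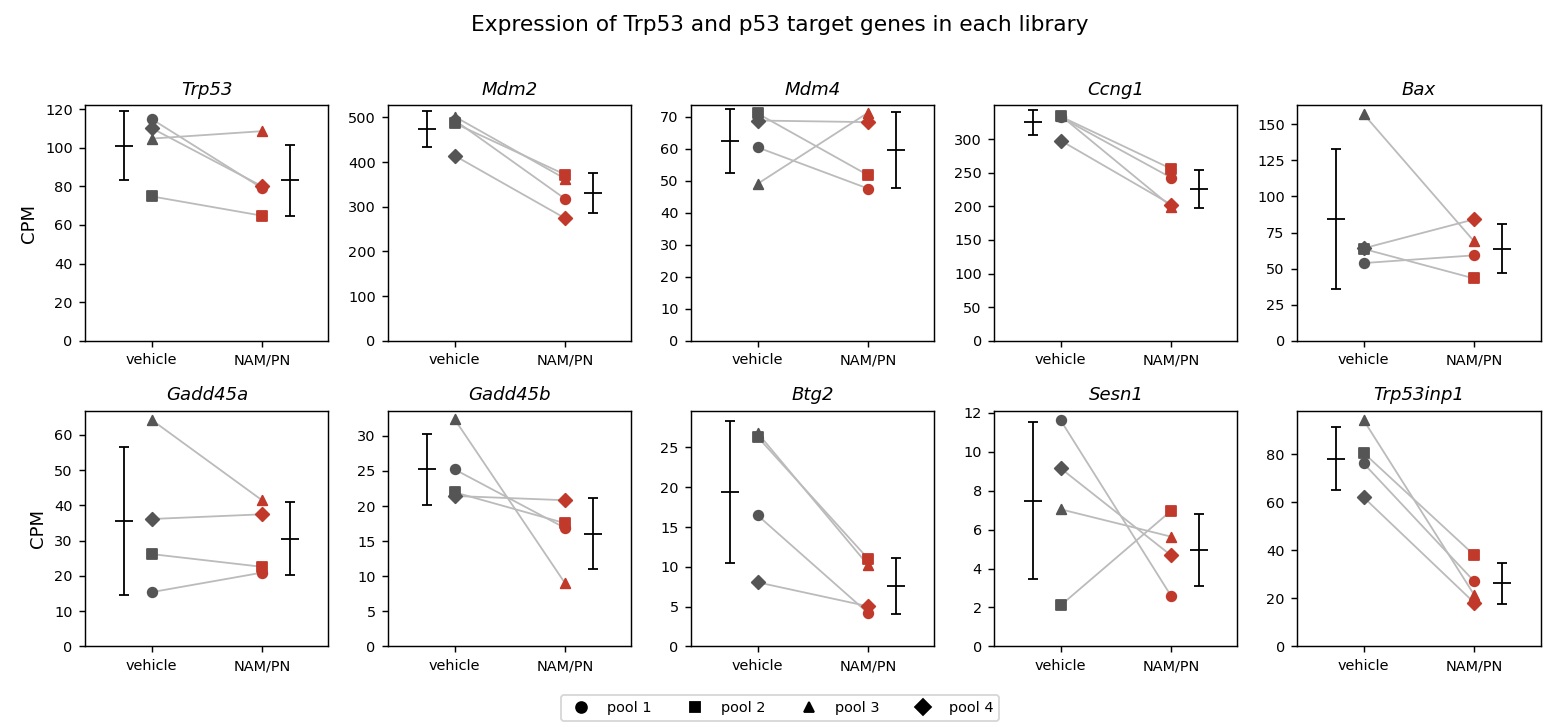
Expression in CPM (linear axes from 0) of each of the 10 genes in the 4 vehicle libraries (gray) and the 4 NAM/PN libraries (red), with lines joining libraries of the same pool and black bars giving mean ± SD. Trp53inp1, Mdm2, Ccng1 and Gadd45b show conditions that do not overlap, and 7 of the 10 genes, Bax and Gadd45a among them, are highest in the vehicle library of pool 3.

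Trp53 itself (ENSMUSG00000059552, chromosome 11 of GRCm38 from 69580359 to 69591873, plus strand) was expressed at 115, 74.8, 105 and 110 CPM with vehicle in pools 1 to 4 and at 79.0, 64.8, 109 and 80.0 CPM under NAM/PN. The conditions overlapped, and the NAM/PN library of pool 3 was above its own vehicle library while the other 3 pools had lower values. The log2 fold change of Trp53 was -0.28 (95% confidence interval -0.73 to 0.17, adjusted p = 0.812 in edgeR's quasi-likelihood test), so a fall to the lower bound or a small rise could not be told from no change at this depth. No annotated exon of another gene overlaps those of Trp53, and its processed pseudogene Trp53-ps had at most 28 counts in a library. Wrap53, which lies head to head with Trp53 on the opposite strand and encodes a telomerase and Cajal body protein, had a log2 fold change of -0.73 (adjusted p = 0.566 in the same test).

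Neither Mdm2 nor Mdm4, whose products restrain p53, was called by edgeR. Mdm2 (ENSMUSG00000020184, chromosome 10 from 117688875 to 117710758, minus strand), both a target of p53 and the main ligase that marks it for degradation, was expressed at 494, 487, 502 and 414 CPM under vehicle and at 317, 372, 363 and 274 CPM under NAM/PN. Every NAM/PN library was below every vehicle library. The mean was 474 ± 40.4 CPM under vehicle and 331 ± 45.0 CPM under NAM/PN (SD, n = 4 each), a 1.43-fold lower level. Its log2 fold change of -0.52 (standard error 0.16, 95% confidence interval -0.85 to -0.18) did not pass the adjustment in edgeR's quasi-likelihood test (adjusted p = 0.156), while DESeq2's Wald test called it (adjusted p = 0.0170). By DESeq2, 2.78% of the genes with an adjusted p-value were called and 1.89% were called lower.

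Mdm4 (ENSMUSG00000054387, chromosome 1 from 132959484 to 133030561, minus strand), which masks the activation domain of p53, was at 60.4, 71.0, 49.0 and 68.8 CPM under vehicle and at 47.5, 51.7, 71.3 and 68.3 CPM under NAM/PN. Its libraries overlapped, with a higher value in pool 3, lower values in pools 1 and 2 and almost equal values in pool 4. The log2 fold change of Mdm4 was -0.062 (95% confidence interval -0.54 to 0.42, adjusted p = 0.986 in edgeR's quasi-likelihood test). Mdm4-ps, its processed pseudogene, had at most 35 counts in a library.

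Whether the genes of this loop changed unequally was tested on log2 ratios within libraries (with 1 CPM added to each gene). The ratio of Mdm2 to Mdm4 was 2.92 ± 0.33 with vehicle and 2.46 ± 0.38 with NAM/PN (log2, SD, n = 4 each; two-sided exact permutation test, p = 0.143). For Mdm2 to Trp53 the log2 ratio was 2.23 ± 0.33 with vehicle and 2.00 ± 0.36 with NAM/PN (n = 4 each, exact permutation p = 0.371), lower in all 4 pools. Without pool 3 the differences shrank from -0.45 to -0.27 for Mdm2 to Mdm4 and from -0.24 to -0.14 for Mdm2 to Trp53. Neither difference passed the test, and over the 3 ratios tested the adjusted p was 0.40 for each exact permutation test, where 0.0286 is the smallest unadjusted value that 4 libraries against 4 allow.

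Among targets tied to arrest of the cell cycle, Ccng1 (ENSMUSG00000020326, chromosome 11 from 40748552 to 40755311, minus strand), which encodes cyclin G1, a partner of the PP2A phosphatase that acts on MDM2, had values that stood apart in the same way as those of Mdm2. Its vehicle libraries stood at 332, 334, 335 and 298 CPM and its NAM/PN libraries at 243, 256, 200 and 203 CPM. The groups were well apart, with means of 325 ± 18.0 and 225 ± 28.3 CPM (SD, n = 4 each), a 1.44-fold lower level with NAM/PN. For Ccng1 the log2 fold change was -0.53 (standard error 0.16, 95% confidence interval -0.86 to -0.19), with an adjusted p of 0.147 in edgeR's quasi-likelihood test and of 0.0137 in DESeq2's Wald test.

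Btg2 (ENSMUSG00000020423, chromosome 1 from 134075170 to 134079120, minus strand), an antiproliferative cofactor of mRNA deadenylation, was expressed at 16.5, 26.3, 26.8 and 8.05 CPM under vehicle and at 4.19, 11.01, 10.2 and 5.04 CPM under NAM/PN. It was lower in all 4 pools, and the conditions overlapped because the vehicle library of pool 4 was below the NAM/PN libraries of pools 2 and 3. Its mean was 2.55-fold lower with NAM/PN, and its log2 fold change of -1.35 had a wide 95% confidence interval from -2.47 to -0.24 (adjusted p = 0.362 in edgeR's quasi-likelihood test), with between 34 and 217 counts in a library.

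Gadd45a and Gadd45b encode small stress proteins that bind PCNA and kinases of the p38 and JNK pathways, and their values differed in pattern. Gadd45a (ENSMUSG00000036390, chromosome 6 from 67035096 to 67037457, minus strand) had 15.4, 26.2, 64.2 and 36.1 CPM under vehicle and 20.9, 22.6, 41.4 and 37.5 CPM under NAM/PN, with full overlap. Without vehicle replicate 3, its log2 fold change went from -0.21 (adjusted p = 0.963 in edgeR's quasi-likelihood test) to 0.23 (adjusted p = 0.969). Exons of the transcript E230016M11Rik, on the opposite strand, overlap 337 exonic bases of Gadd45a, 1503 bases from its 3′ end, and that gene had at most 49 counts in a library.

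Gadd45b (ENSMUSG00000015312, chromosome 10 from 80930073 to 80932204, plus strand) was at 25.2, 22.0, 32.4 and 21.4 CPM under vehicle and at 16.9, 17.6, 8.98 and 20.8 CPM under NAM/PN. No NAM/PN library reached a vehicle library, but in pool 4 the 2 values differed by less than 1 CPM. The log2 fold change of Gadd45b was -0.65 (95% confidence interval -1.44 to 0.14, adjusted p = 0.696 in edgeR's quasi-likelihood test). The log2 ratio of Gadd45a to Gadd45b was higher with NAM/PN in all 4 pools, from 0.31 ± 0.73 to 0.89 ± 0.83 (SD, n = 4 each), a difference within the spread of the libraries (two-sided exact permutation test, p = 0.40). Gadd45g, the remaining family member, had 125 ± 34.3 CPM under vehicle and 84.1 ± 13.8 CPM under NAM/PN (SD, n = 4 each) and was lower in all 4 pools, with a log2 fold change of -0.57 (adjusted p = 0.354 in edgeR's quasi-likelihood test).

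Bax and Sesn1, tied to cell death and to oxidant control, were not called. Bax (ENSMUSG00000003873, chromosome 7 from 45461697 to 45466898, minus strand), which opens the outer mitochondrial membrane in apoptosis, had 53.9, 63.6, 157 and 64.1 CPM under vehicle and 59.2, 43.2, 68.8 and 84.2 CPM under NAM/PN. Gm45808, which shares 192 exonic bases with Bax on the same strand, had 0 counts. The vehicle library of pool 3 was far above all others, and the remaining libraries of both conditions were intermixed. Its log2 fold change of -0.41 (95% confidence interval -1.05 to 0.23, adjusted p = 0.810 in edgeR's quasi-likelihood test) became 0.072 (adjusted p = 0.993) without that library. Sesn1 (ENSMUSG00000038332, chromosome 10 from 41809935 to 41908424, plus strand), a sestrin that restrains mTORC1 and oxidants, had few counts, between 17 and 98 in a library. It was expressed at 11.6, 2.11, 7.04 and 9.14 CPM under vehicle and at 2.59, 6.97, 5.63 and 4.67 CPM under NAM/PN, in overlapping ranges and with the higher NAM/PN value in pool 2. The confidence interval of the log2 fold change of Sesn1 (-0.59) ran from -2.37 to 1.19, too wide to show a change of moderate size in either direction (adjusted p = 0.943 in edgeR's quasi-likelihood test). The value rested on single libraries, with -0.30 without vehicle replicate 1 and -0.90 without vehicle replicate 2, and between -1.11 and -0.087 with a pool left out. Its relatives Sesn2 and Sesn3 had log2 fold changes of 0.67 and -0.24, and neither passed the test. Sesn2 was higher with NAM/PN in all 4 pools. Sesn3 was at 16.1, 30.5, 45.9 and 25.4 CPM under vehicle and at 10.6, 29.0, 11.1 and 48.8 CPM under NAM/PN, so its conditions overlapped widely and pool 4 was higher.

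Trp53inp1 (ENSMUSG00000028211, chromosome 4 from 11156431 to 11174379, plus strand) encodes a nuclear stress protein that p53 induces, that aids phosphorylation of p53 and that also takes part in autophagy. Its expression was 76.1, 80.5, 94.1 and 62.0 CPM under vehicle and 27.1, 38.0, 21.5 and 18.2 CPM under NAM/PN. The lowest vehicle library was far above the highest NAM/PN library, and the values fell in all 4 pools. Its mean of 78.2 ± 13.2 CPM fell to 26.2 ± 8.70 CPM (SD, n = 4 each). This was a log2 fold change of -1.58 (standard error 0.27, 95% confidence interval -2.14 to -1.01, adjusted p = 0.00335 in edgeR's quasi-likelihood test). Trp53inp1 was called in each of 17 alternative fits, among them the replicate block and fits that lacked any 1 library or any 1 pool, with log2 fold changes between -1.81 and -1.40 and adjusted p-values between 1.51e-06 and 0.0464. Without both NAM/PN libraries high in Col1a1, an alternative chosen after seeing the data, Trp53inp1 was still the single call, with a log2 fold change of -1.98 (adjusted p = 0.00824 by edgeR). Its relative Trp53inp2, an autophagy factor, had a log2 fold change of -0.35 and did not pass the test.

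**Figure D3:**
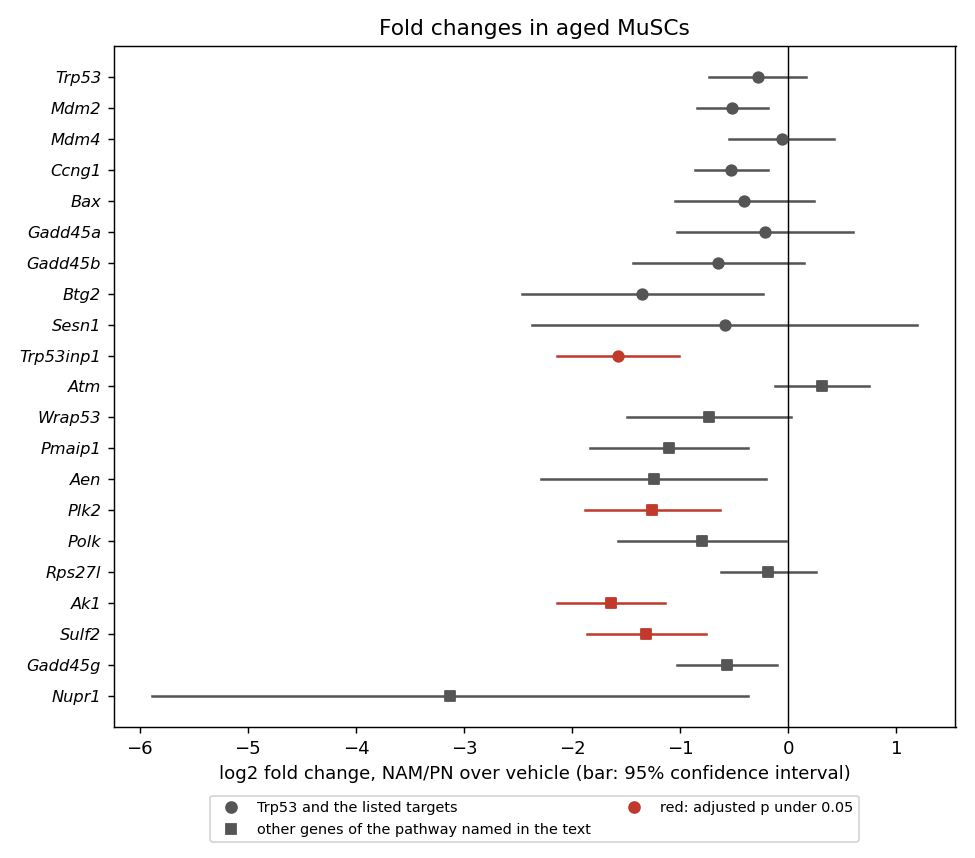
Log2 fold changes of NAM/PN over vehicle with 95% confidence intervals from edgeR's quasi-likelihood fit, for the 10 listed genes (circles) and for genes of the pathway lists (squares). The squares are, in each pathway list, the genes called or otherwise the 2 with the smallest p-values. Genes named after their values were seen are not drawn, among them Gls2, whose interval (0.18 to 5.46) lies above 0. Red marks an adjusted p under 0.05, reached by Trp53inp1, Plk2, Ak1 and Sulf2, and the intervals of Mdm2, Ccng1, Btg2, Pmaip1, Aen, Polk, Gadd45g and Nupr1 exclude 0 without passing the adjustment.

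Other p53 target genes were described from 4 lists of 47 genes, of which 45 were tested. NAM/PN lowered 3 of them (6.67%, against 0.995% of all genes) and raised 0, while 10 had an unadjusted p under 0.05 (22.2%, against 9.28% of all genes), 9 of these with lower values. By DESeq2 the count was 3 lower and 0 higher, against 1.89% of all genes lower. Of the 45, 32 had fold changes below 0 (71.1%, against 50.2% of all genes), and the median log2 fold change of the 45 was -0.24. Vehicle and NAM/PN libraries occupied separate ranges for 4 of the 45 (8.89%, against 7.21% of all genes in either direction). The 3 genes called were Plk2, Ak1 and Sulf2, an arrest-linked kinase, a metabolic enzyme and a secreted enzyme.

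Ak1, the adenylate kinase that balances adenine nucleotides and is abundant in muscle, had the largest fall of the 3. It was at 128, 116, 85.6 and 138 CPM under vehicle and at 38.3, 47.5, 25.3 and 38.5 CPM under NAM/PN, so the conditions were far apart in every pool. Its log2 fold change was -1.64 (standard error 0.24, adjusted p = 0.000714 in edgeR's quasi-likelihood test), between -1.78 and -1.50 over the alternatives and called in each of the 17. Sulf2, a secreted sulfatase that trims heparan sulfate, fell from 69.3 ± 12.9 to 27.9 ± 6.95 CPM (SD, n = 4 each) with a log2 fold change of -1.31 (adjusted p = 0.0111 in the same edgeR test). That call was lost without NAM/PN replicate 1 (adjusted p = 0.0523) and without vehicle replicate 2 (0.0792), and also without pool 1 (0.0708), 2 (0.189) or 3 (0.0887). Plk2, a polo-like kinase of the stress response, fell from 78.5 ± 17.5 to 32.9 ± 13.2 CPM (SD, n = 4 each), or by 1.26 on the log2 scale (adjusted p = 0.0422 in the same edgeR test). The Plk2 call was the least stable, since it was lost without vehicle replicates 1 (adjusted p = 0.151), 2 (0.189) or 4 (0.0862) and without NAM/PN replicates 1 (0.130), 3 (0.0645) or 4 (0.0530), and without any 1 of the 4 pools (0.0715 to 0.325). Over the 17 alternatives the log2 fold changes stayed between -1.46 and -1.02 for Plk2 and between -1.55 and -1.19 for Sulf2.

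In apoptosis, 0 of 11 tested targets were called, 10 had fold changes below 0 and the median log2 fold change was -0.37. The smallest p-values were those of Pmaip1 (NOXA, a BH3-only protein that frees BAX and BAK) and Aen, an apoptosis-linked nuclease. Pmaip1 had 30.9, 43.1, 30.9 and 25.5 CPM under vehicle and 10.6, 13.7, 16.9 and 19.4 CPM under NAM/PN. These values did not overlap, and the log2 fold change was -1.10 (95% confidence interval -1.84 to -0.37, adjusted p = 0.178 in edgeR's quasi-likelihood test). For Aen the log2 fold change was -1.25 (adjusted p = 0.372 in the same test), with lower values in all 4 pools. Its size leans on vehicle replicate 1, at 37.1 CPM against 10.5 to 19.0 CPM in the other vehicle libraries. Bbc3 (PUMA) had a log2 fold change of -0.57 (adjusted p = 0.920 in the same test). Its pools were split, with 19.8, 18.2, 28.2 and 12.1 CPM under vehicle and 27.0, 21.9, 1.07 and 2.99 CPM under NAM/PN. Fas did not pass the filter, with 83 counts, all in vehicle replicates 2 and 3.

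Among 11 tested genes of arrest and feedback, Plk2 was the single call and the median log2 fold change was -0.29. Genes of DNA repair and nucleotide supply had a median of -0.14 over 8 tested genes and 0 calls. The smallest p-values there were those of Polk, a polymerase that copies past lesions, with a log2 fold change of -0.80 (adjusted p = 0.509 in edgeR's quasi-likelihood test), and Rps27l, a ribosomal protein variant, with -0.18 (adjusted p = 0.912). Rps27l was at 366, 330, 164 and 333 CPM under vehicle and at 247, 264, 294 and 244 CPM under NAM/PN. Its value thus rests on vehicle replicate 3, since pool 3 was higher with NAM/PN and the other pools were lower. For metabolism and secretion the median over 15 tested genes was 0.0067, with Ak1 and Sulf2 called, 7 fold changes below 0 and 8 above. The highest fold change was that of Gls2, a mitochondrial glutaminase, named after its values were seen, with 0 to 22 counts in the vehicle libraries and 11 to 132 in the NAM/PN libraries (log2 fold change 2.82, adjusted p = 0.480 in edgeR's quasi-likelihood test). Gls2 was higher with NAM/PN in all 4 pools, as were 8.49% of all genes tested.

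Regulators of p53 were not called in either direction. Of 17 genes of the p53 family, kinases, cofactors and ligases, 15 were tested, and Trp63 and Trp73, the other members of the family, had 0 counts in every library. The median log2 fold change of the 15 was -0.15 and 0 had an unadjusted p under 0.05. By p-value the foremost were Wrap53, given above, and Atm, the kinase that signals DNA breaks to p53, with a log2 fold change of 0.32 (adjusted p = 0.761 in edgeR's quasi-likelihood test). Paralogs and partners of the listed genes had a median of -0.099 over 13 tested genes and 0 calls. The smallest p-values in that list were those of Gadd45g and of Nupr1, a stress-induced chromatin protein, which had between 48 and 124 counts in the vehicle libraries and between 0 and 22 in the NAM/PN libraries (adjusted p = 0.432 in the same edgeR test).

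**Figure D4:**
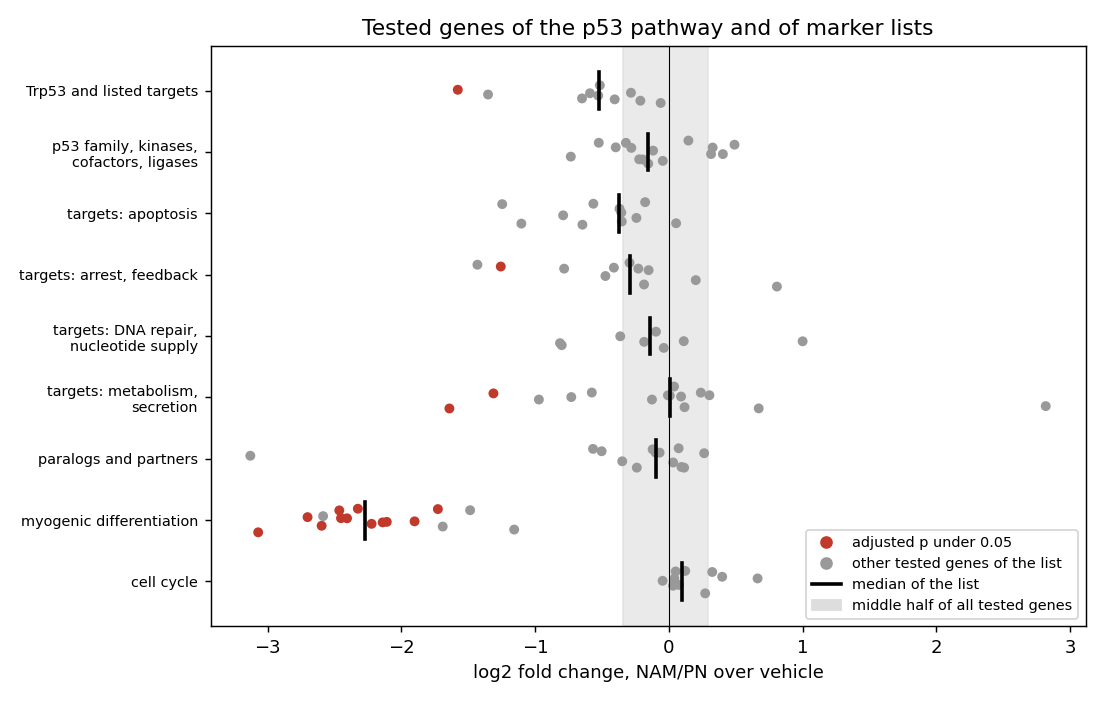
Log2 fold changes of the tested genes of each list (points, red at an adjusted p under 0.05), with the median of each list (black bar) and the range between the quartiles of all tested genes, -0.35 to 0.29 (gray). The listed p53 genes have a median of -0.52 and 1 call, the differentiation markers a median of -2.27 and 12 calls, and the cell cycle markers a median of 0.099 and 0 calls.

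Markers of myogenic differentiation moved in the same direction as Trp53inp1. NAM/PN lowered 12 of 16 differentiation markers and raised 0, against 0.995% of all genes called lower and 0.282% called higher. Among the 12 was Myog, the transcription factor that starts terminal differentiation (log2 fold change -2.22, adjusted p = 0.000232 in edgeR's quasi-likelihood test). The summed level of the 16 was between 2174 and 4159 CPM under vehicle and between 524 and 1316 CPM under NAM/PN. None of the 16 was at 0 in all libraries. Of 10 cell cycle markers 0 were called, with summed levels between 1789 and 2250 CPM under vehicle and between 1965 and 2330 CPM under NAM/PN. The part of differentiation in the changes of Trp53inp1, Ak1, Sulf2 and Plk2 was not tested.

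Markers of other cells differed between libraries. Of 8 fibro-adipogenic markers 4 were tested, and 2 were called lower (against 0.995% of all genes), Gsn and Col3a1, which muscle cells also express. Col1a1 had 4.26, 1.74, 41.3 and 1.74 CPM under vehicle and 486, 1032, 3.96 and 3.27 CPM under NAM/PN. It was thus high in 2 NAM/PN libraries and within the vehicle range in the other 2 (log2 fold change 4.97, adjusted p = 0.0709 in edgeR's quasi-likelihood test). Cd34, which MuSCs also express, had means of 104 and 63.2 CPM and was not called, while Pdgfra and Lum had 0 counts in every library and Dcn had 2 counts in all. The summed level of the list was between 340.6 and 462 CPM under vehicle and between 138 and 1202 CPM under NAM/PN. Of 6 mural markers, Acta2 (smooth muscle actin, which myogenic cells also express) was called lower, Notch3 had means of 37.6 and 26.7 CPM without a call, Myh11 was at 0, and the summed level was between 274 and 585 CPM under vehicle and between 76.0 and 143 CPM under NAM/PN. Of 8 endothelial markers 1 was tested and 0 were called, and Emcn, Cldn5 and Flt1 were at 0. Of 6 immune markers 5 were at 0, Ptprc among them, and of 4 glial markers 2 were tested and 0 were called. Summed levels reached at most 29.6 CPM for endothelial, 7.58 CPM for immune and 18.4 CPM for glial markers in any library. Without the 2 NAM/PN libraries high in Col1a1, Ak1 was the single call among the other pathway genes, while Sulf2 (log2 fold change -1.16, adjusted p = 0.169 by edgeR) and Plk2 (-1.52, adjusted p = 0.107) kept fold changes below 0 in this fit on fewer libraries.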

How the data were processed

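RNA of cultured aged MuSCs was sequenced from QuantSeq libraries. These sample transcript 3′ ends, and no length scaling was applied. The deposited values are raw counts, which the authors made per gene without normalization. Per the study's methods, reads were aligned to GRCm38 with RNASTAR and counted with htseq-count (HTSeq 2.16.2 in the submitters' processing notes), and the annotation release, strand setting and treatment of reads with several matches are not given in the sources used here. Genes were named with GENCODE mouse release M21 (55227 of 55487 identifiers).

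In R 4.3.3, genes were filtered with filterByExpr (minimum count 10, minimum total 15), normalized by TMM and compared by the quasi-likelihood test of edgeR 4.0.16, with Benjamini-Hochberg adjustment over 12060 genes, as the study describes for mouse muscles. The pool of mice was taken to pair the libraries, since the labels use the same pool numbers in both conditions. Correlations across genes of paired deviations from the condition means were between -0.0332 and 0.0313, and so showed no deviation shared within pools. Libraries of a condition were not repeats, since chi-square divided by its degrees of freedom was 23.7 or more. Alternatives were the pool as a replicate block, DESeq2 1.42.0 (Wald test, or its size factors in edgeR), no filter, voomWithQualityWeights of limma 3.58.1, and leaving out libraries or pools. A fit without NAM/PN replicates 1 and 2 was added after seeing the data. The fit was tested on simulated data. Promoters came from RefSeq (GRCm38.p6). Named genes are the 10 listed genes and, in each pathway list, the genes called or otherwise the 2 with the smallest p-values. Sesn2, Sesn3, Trp53inp2, Bbc3, Fas, Trp63, Trp73 and Gls2 were added after their values were seen. Genes and lists were chosen with earlier results of these data known.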

Additional observations from a re-analysis of the deposited data

Results flagged for a closer look

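Among 42 groups of 4 libraries (21 named genes in 2 conditions), 3 had a library that stood apart from the others by Dixon's ratio of gap to range, with a critical value of 0.829, and chance gives 2.1. In vehicle replicate 3, Bax reached 157 CPM, while the other vehicle libraries lay between 53.9 and 64.1 CPM (ratio 0.901), in the library with the largest share of ribosomal RNA. In vehicle replicate 4, Ccng1 stood at 298 CPM, below 332 to 335 CPM in the others (ratio 0.934), and Mdm2 at 414 CPM, below 487 to 502 CPM (ratio 0.829). For Ccng1 and Mdm2 the library that stood apart was the vehicle library closest to the NAM/PN libraries.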

How the results depend on the processing

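Of 361 recomputed values (without the fit added later), 303 kept their direction and their side of the threshold or stayed within 1.5 times the main count. The pool as a replicate block changed no call among the listed genes or the other genes of the pathway and gave 156 genes in all, against 154 without it. DESeq2's Wald test called 388 genes (124 higher, 264 lower) and 3 of the 10 listed genes in place of 1, without a filter on low counts edgeR called 366 (135 higher, 231 lower), and voomWithQualityWeights called 232 (66 higher). With any 1 library or pool left out, between 42 and 177 genes were called (5 to 43 higher, 37 to 134 lower), 1 of the 10 listed genes in each case, and between 1 and 3 of the other pathway genes, all lower. Fits without libraries or pools moved the log2 fold changes of Mdm4 between -0.26 and 0.070, of Bax between -0.68 and 0.072 and of Gadd45a between -0.46 and 0.23, so that their directions changed, and none of the 3 was called in any alternative. Over these alternatives Trp53 lay between -0.44 and -0.18 and Gadd45b between -0.87 and -0.31. Without NAM/PN replicates 1 and 2, a fit chosen after seeing the data, 76 genes were called (7 higher, 69 lower), 1 of the 10 listed genes and 1 other pathway gene, and Mdm4 (0.16) and Gadd45a (0.15) changed direction without a call. With the replicate block, an exact test on changes of sign within the 4 pools gave p = 0.125 for the differences in log2 ratio of Mdm2 to Trp53 (-0.24) and of Gadd45a to Gadd45b (0.57), which is the smallest value it allows, and p = 0.25 for Mdm2 to Mdm4 (-0.45). DESeq2 size factors left the median log2 fold change of all genes at -0.0054. Sesn1, Btg2, Gls2 and Nupr1 had few counts, which limits their precision.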
